A study of Mus musculus with 12 samples.

Results

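The signal transducers Stat3, Stat5a and Stat5b, the kinase Jak3, and 6 genes known as targets of these factors, Socs1, Socs2, Socs3, Cish, Pim1 and Bcl3, were followed through 4 genotypes of mice. The 10 genes were listed by symbol, with no cut on their values but with earlier results of these data known, and all 10 were found among the 50600 gene IDs of the count files and passed the low-count filter that left 16052 genes for testing. The study asked how the human fusion kinase NPM-ALK leads to T-cell lymphoma and what deletion of the maintenance DNA methyltransferase gene Dnmt1 changes. RNA-seq of thymus or tumor tissue was given for 12 mice, 3 per genotype.

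The Ctrl mice (labelled DNMT1 fl/fl, with wt in the sample titles) had Dnmt1 between loxP sites but lacked Cre, and gave thymocytes at 20 to 25 wk. The KO mice (DNMT1 fl/fl CD4-CRE, thymocytes, 20 to 21 wk) deleted Dnmt1 through Cre recombinase under control of Cd4. The ALK mice (NPM-ALK+, T cell lymphoma cells, 22 to 31 wk) expressed NPM-ALK from a transgene with the Cd4 enhancer and promoter, and the ALKKO mice (NPM-ALK+, DNMT1 fl/fl CD4-CRE, thymocytes, 19 to 25 wk) combined the transgene with the deletion. Ages are those of the labels, and the methods of the study give a single, younger age for its bulk RNA samples as a whole. The labels name no treatment, the strain background was mixed C57Bl/6 and SV/129, and the second KO mouse (KO2) was the only female. The labels name no loxP-flanked allele for the ALK mice, and no thymocytes of tumor-free NPM-ALK mice with intact Dnmt1 were sequenced here, so in ALK against ALKKO and ALK against Ctrl the tumor state and the genotype cannot be told apart. Both transgenes are switched on in the T lineage by Cd4 elements, and other cells of the thymus keep Dnmt1. The methods describe homogenized tissue, so a value is a mean over all cells of a sample.

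Cytokines signal through receptor chains that hold Janus kinases. The kinases phosphorylate STAT proteins, which pair, enter the nucleus and bind DNA at palindromic sites, and among the genes they switch on are those of the SOCS family, whose products shut the same receptors down. In thymocytes, Jak3 works with the common gamma chain of the interleukin receptors, and STAT5 carries the signals of interleukin-7 and interleukin-2. In lymphomas with NPM-ALK the kinase activates STAT3 directly, without a cytokine. Activation of a STAT is a change of the protein, so the RNA level of a STAT gene does not measure it, and only RNA was measured in these data.

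The 3 STAT genes lie next to each other on chromosome 11 of GRCm38 (mm10). Stat5b covers chr11:100780731-100850724 on the minus strand, Stat5a chr11:100859351-100885169 on the plus strand and Stat3 chr11:100885098-100939540 on the minus strand. The ends of Stat5a and Stat3 overlap by 72 exonic bases on opposite strands. Socs3 lies on the same chromosome at chr11:117966079-117970047 (minus strand). The others are Socs1 at chr16:10782240-10785536 (minus), Socs2 at chr10:95385362-95417180 (minus), Cish at chr9:107296026-107302784 (plus), Pim1 at chr17:29490753-29496112 (plus), Bcl3 at chr7:19808462-19822770 (minus) and Jak3 at chr8:71676296-71690575 (plus). Stat5a and Stat5b are near copies in part of their length. Of all 50-base windows of their transcripts, 8.52% for Stat5a and 11.0% for Stat5b also occur in other genes, on either strand. Reads that align to several places are in no gene's count. Windows shared with a gene that overlaps at the same place were not set apart, so a shared window need not be lost to counting. For Socs1 and Socs3 no window was shared, and for Cish, Pim1 and Jak3 it was 9.35%, 8.78% and 7.21%. The counting's strand setting was not given in the sources used here. If strand was ignored, reads on exonic bases shared with an antisense partner, as in Pim1, Cish and Bcl3, would be ambiguous and in neither count. Each of these partners had at most 89 counted reads over the 12 libraries together, which does not bound such a loss.

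The start sites of 3 of the genes are printed here because they hold, or lack, the pairs of half-sites that STAT dimers are known to bind. The windows come from RefSeq on GRCm38.p6 and run from 250 bases before to 50 bases after the start, and 9 of the 10 genes have at least 1 such window (12 windows in all). The motif searched was TTCNNNGAA, which reads the same on both strands and cannot differ between them. Letters that match it are in capitals.
Cish, chr9:107296409-107296708, plus strand: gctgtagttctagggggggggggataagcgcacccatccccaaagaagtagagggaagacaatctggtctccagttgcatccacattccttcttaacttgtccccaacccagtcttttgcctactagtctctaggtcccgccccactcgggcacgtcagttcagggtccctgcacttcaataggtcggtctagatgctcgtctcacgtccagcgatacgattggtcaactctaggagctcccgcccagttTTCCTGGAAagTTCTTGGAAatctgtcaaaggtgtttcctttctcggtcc
Socs3, chr11:117969317-117969616, minus strand: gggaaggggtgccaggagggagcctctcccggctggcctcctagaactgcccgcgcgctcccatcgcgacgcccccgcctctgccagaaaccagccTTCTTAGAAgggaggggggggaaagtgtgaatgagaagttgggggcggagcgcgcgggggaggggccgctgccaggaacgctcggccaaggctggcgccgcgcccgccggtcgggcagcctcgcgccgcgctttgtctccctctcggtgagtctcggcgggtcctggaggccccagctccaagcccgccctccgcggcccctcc
Socs1, chr16:10785487-10785786, minus strand: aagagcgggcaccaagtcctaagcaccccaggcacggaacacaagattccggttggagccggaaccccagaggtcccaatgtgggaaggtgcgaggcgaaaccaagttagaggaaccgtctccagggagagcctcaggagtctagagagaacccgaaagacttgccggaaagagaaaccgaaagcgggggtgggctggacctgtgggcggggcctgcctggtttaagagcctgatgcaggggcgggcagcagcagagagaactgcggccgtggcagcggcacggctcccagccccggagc
The Cish window holds the motif as TTCCTGGAA and, after a gap of 2 bases, again as TTCTTGGAA, both within the first bases after the annotated start. The Socs3 window holds TTCTTAGAA, whose first base lies 154 bases before the start. The Cish and Socs3 windows lie wholly inside the gene spans given above, so these RefSeq starts lie downstream of the outer gene starts. The window of Socs1, a SOCS gene like both of these, has no match, and neither have the 9 other windows. Of all 32851 windows of this length, 8.30% hold the motif and 0.457% hold it 2 or more times. A match is a description of letters, and binding was not measured.

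The libraries held 12473857 to 18864327 reads on genes, and levels are given as CPM, counts scaled to a fixed library total, after TMM normalization, where 3 counts equal 0.159 to 0.241 CPM before the TMM factors. The labels were checked first. Reads counted on the mouse Alk gene (the transgene holds human sequence) were at 34.87 to 54.99 CPM in all ALK and ALKKO libraries and at 0.107 to 0.431 CPM in Ctrl and KO. The Dnmt1 level was 400.0 to 487 CPM in Ctrl, 379 to 788 CPM among the tumors, 206 to 244 CPM among KO mice and 205 to 244 CPM for ALKKO, and the counts do not separate the deleted exons from the others.

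Library KO2 stood apart from the other thymus libraries and from its label. Its 7 B cell markers summed to 2362 CPM, against 66.4 and 103 CPM in the other KO mice, and its 10 macrophage and granulocyte markers to 2247 CPM, against 435.7 and 634.0 CPM. Its 9 T cell markers summed to 3494 CPM (Ctrl 7153 to 9497 CPM), its 9 markers of double-positive thymocytes, the major population of the thymus, to 2721 CPM (Ctrl 7488 to 8631 CPM), and its 6 thymic epithelial markers to 74.3 CPM (Ctrl 588 to 674 CPM). Results that rest on KO are therefore given with and without KO2. No marker of these lists was at 0 in KO2 except Rag1 and Itgam, which are listed at 0 in all 12 libraries.

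The marker lists were also read in the ALK tumors, where 20.4% of all genes were called against Ctrl, 12% as lower and 8.41% as higher, by the rule given with the results. T cell markers summed to 3415 to 4996 CPM (3 of 9 lower and called, 0 higher), double-positive thymocyte markers to 1664 to 3490 CPM (5 of 8 tested lower), thymic epithelial markers to 7.59 to 157 CPM (4 of 6 lower) and fibroblast and endothelial markers to 1168 to 2533 CPM against 290 to 443 CPM in Ctrl (3 of 8 higher). Genes induced by tissue handling summed to 302 to 543 CPM against 1233 to 1345 CPM (5 of 10 lower), B cell markers to 5.85 to 17.4 CPM (2 of 7 lower) and dendritic cell markers to 6.45 to 30.3 CPM (3 of 6 lower). Macrophage and granulocyte markers (1 of 8 tested lower), erythroid markers (0 of 5 called) and proliferation genes (0 of 7 called) summed to values on both sides of those of Ctrl. These lists move together with the differences between ALK and Ctrl described next, and their part in them was not tested. In the 3 ALKKO libraries 0 genes of these lists were called against Ctrl by edgeR, 0 of them at an unadjusted p under 0.05, and the sums of some lists still lay apart from Ctrl. Macrophage and granulocyte markers summed to 571 to 591 CPM (Ctrl 422 to 512 CPM), dendritic cell markers to 73.6 to 107 CPM (Ctrl 49.6 to 71.3 CPM), thymic epithelial markers to 414 to 502 CPM and tissue-handling genes to 908 to 1018 CPM, the last 2 under all Ctrl libraries.

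**Figure D1:**
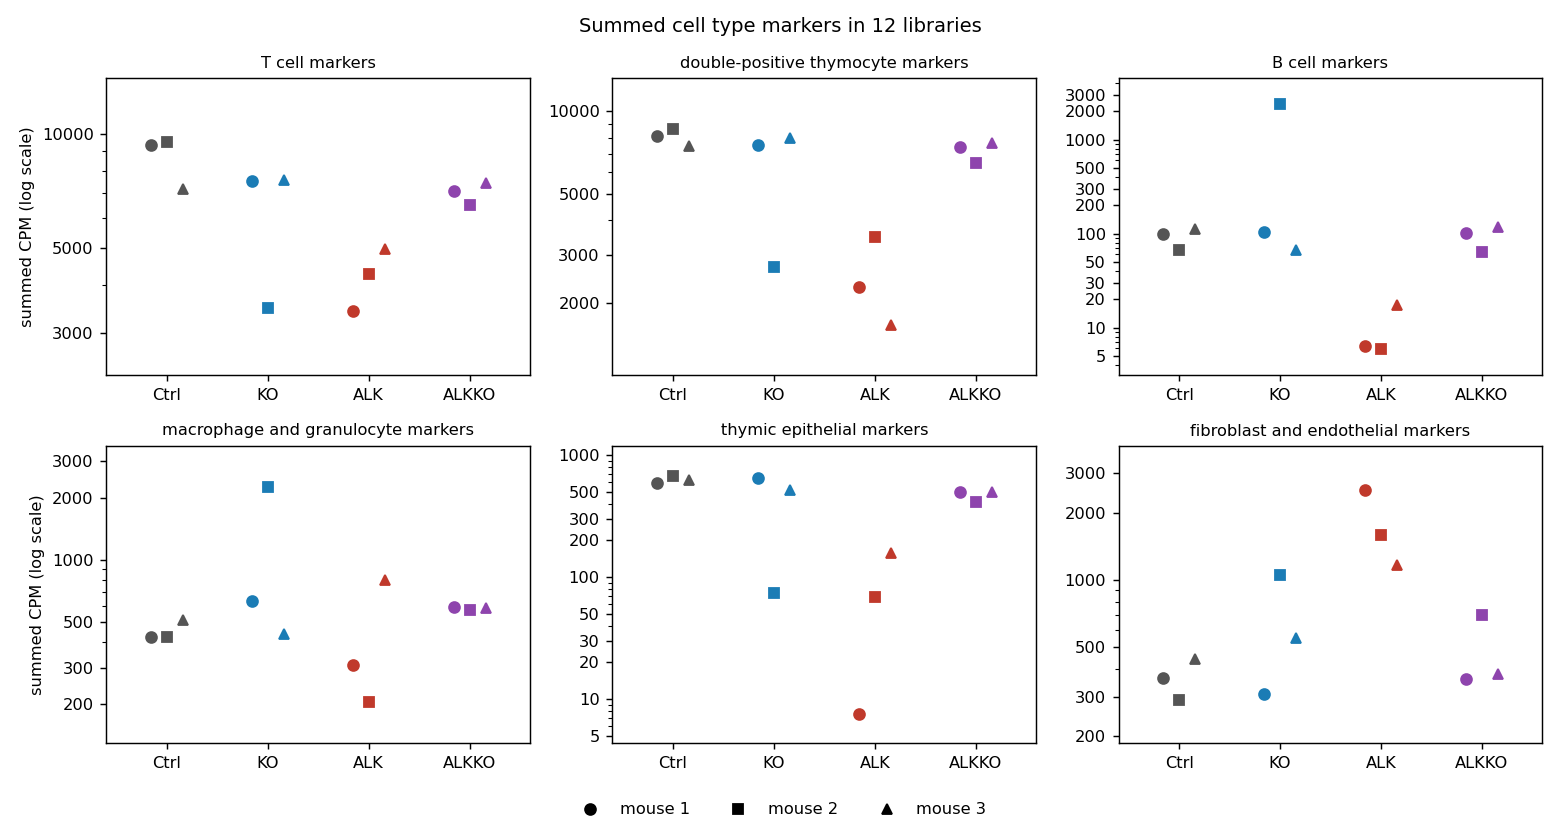
Summed CPM (log scale) of 6 lists of cell type markers in each library, by genotype. KO2 (square in KO) has 2362 CPM of B cell markers, while the 11 other libraries have 5.85 to 116 CPM, and the 3 ALK tumors have lower sums of T cell and thymic epithelial markers than the 3 Ctrl thymi.

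In ALK tumors against Ctrl thymocytes, 5 of the 10 genes changed: Socs3 rose, and Socs1, Cish, Pim1 and Stat5b fell. A change was called by edgeR's quasi-likelihood test at a Benjamini-Hochberg adjusted p under 0.05 over all 16052 genes and a fold change above 2, and every adjusted p below comes from this test unless another is named. By this rule 20.4% of all genes were called, 8.41% as higher in ALK and 12% as lower, against 1 and 4 of the 10. The groups did not overlap for 6 of the 10 genes, against 46.4% of all genes. The median log2 fold change of the 10 was -0.82, and that of all genes 0.05. In tissue RNA, fewer cells of a type and less RNA per cell cannot be told apart.

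**Figure D2:**
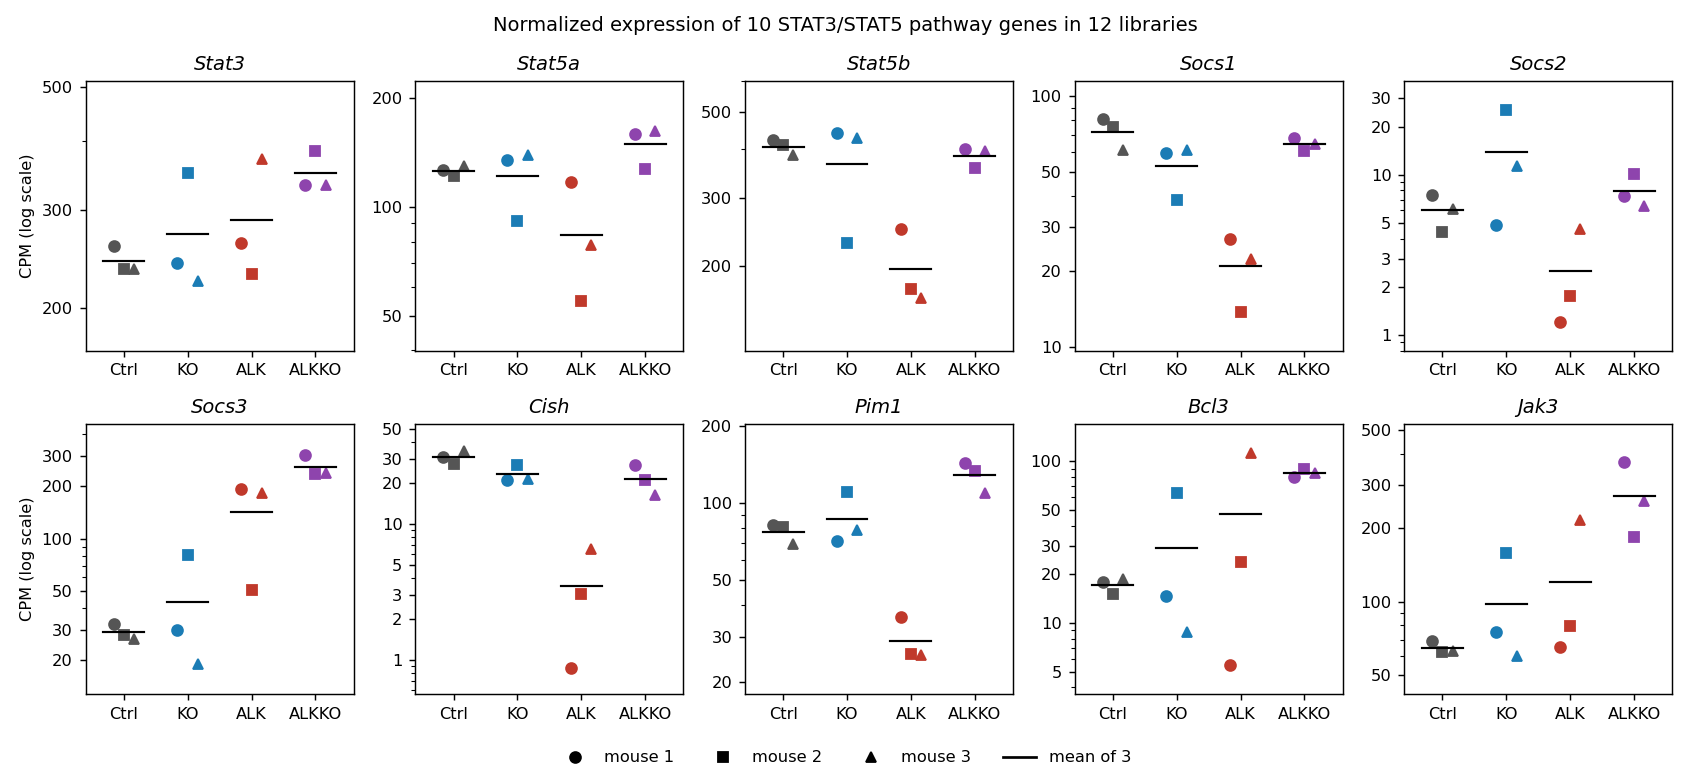
CPM (log scale) of each gene in each library, by genotype, with the 3 mice of a genotype as separate symbols and their mean as a bar. Cish, Socs1 and Pim1 are lowest in the 3 ALK tumors, Socs3 is high in ALK and ALKKO, and Bcl3 spreads from 5.51 to 112 CPM among the ALK tumors.

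Socs3, whose product binds receptors of the gp130 type and blocks STAT3 signaling, stood at 32.6, 28.1 and 26.4 CPM in the 3 Ctrl thymi, while the 3 ALK tumors had 192, 50.6 and 182 CPM. All tumors lay above all Ctrl thymi, with the second tumor well under the others. The log2 fold change was 2.29 (SE 0.563, adjusted p = 0.0134), a 4.88-fold higher level. The call was lost without the second or the third Ctrl mouse, at adjusted p values of 0.0504 and 0.0532.

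Socs1, which inhibits Janus kinases and limits interferon and interleukin signals in thymocytes, had 80.9, 75.0 and 60.9 CPM in Ctrl and 27.0, 13.7 and 22.4 CPM in ALK. Its direction was thus opposite to that of Socs3, with no overlap between the groups. The log2 fold change was -1.78 (SE 0.256, adjusted p = 0.00124). Cish, a SOCS-family inhibitor known as a STAT5 target, had the largest fall of the 10 genes, from 31.0, 27.6 and 34.5 CPM in Ctrl to 0.873, 3.06 and 6.49 CPM in ALK. The tumors differed 7.43-fold among themselves and all lay under Ctrl, and the log2 fold change was -3.16 at an SE of 0.553 (adjusted p = 0.00287). Socs2, which restrains growth hormone signaling, was low throughout, with 7.50, 4.40 and 6.15 CPM in Ctrl and 1.21, 1.75 and 4.61 CPM in ALK. The third tumor lay within the Ctrl range, and the difference did not pass the test (log2 fold change -1.25, 95% confidence interval -2.65 to 0.15, adjusted p = 0.157), while without the third tumor it was called at -2.04.

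The make-up of the SOCS family shifted with these values. Per kilobase of exon, Socs3 gave 24.1% to 25.3% of the summed level of the 4 genes in Ctrl and 76.5% to 87.4% in ALK. Socs1 gave 58.1% to 64.1% in Ctrl and 10.7% to 20.6% in ALK. The leading transcript of these 4 was thus Socs1 in every Ctrl library and Socs3 in every tumor. The ratio of Socs3 to Socs1 per kilobase was 0.376 to 0.435 in Ctrl and 3.72 to 8.16 in ALK. In ALKKO thymocytes the ratio was 3.71 to 4.49 and the Socs3 share 76.4% to 78.7%, and here Socs1 stayed within 60.2 to 68.2 CPM. The high Socs3 share thus went with low Socs1 in the tumors and with Ctrl-like Socs1 in ALKKO. KO2 was again apart, with a Socs3 share of 58.2% against 29.9% and 20.6% in the other KO mice.

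**Figure D3:**
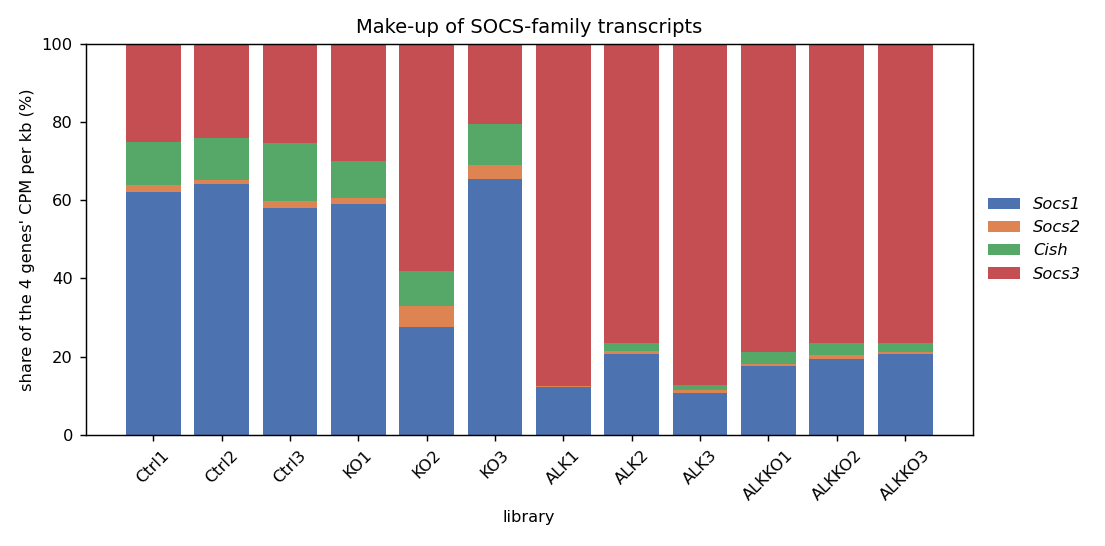
Share of Socs1, Socs2, Cish and Socs3 in their summed CPM per kilobase of exon, as stacked bars for each of the 12 libraries. Socs3 makes up at most 25.3% of the bar in Ctrl and at least 76.4% in the ALK and ALKKO libraries, and KO2 differs from the other KO mice.

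Pim1 encodes a serine/threonine kinase that promotes survival and is induced by STAT3 and STAT5. It had 82.3, 80.5 and 69.0 CPM in Ctrl and 35.8, 25.8 and 25.6 CPM in ALK. The groups were far apart and the tumors close together, and the difference was -1.41 on the log2 scale at an SE of 0.202 (adjusted p = 0.0012). Bcl3, an atypical member of the IkB family that acts in the nucleus with NF-kB dimers, had 17.9, 15.1 and 18.6 CPM in Ctrl and 5.51, 23.8 and 112 CPM in ALK. One tumor lay under all Ctrl mice and the others above, a 20.4-fold range within 1 group, and no change was called (log2 fold change 1.45, 95% confidence interval -0.59 to 3.50, adjusted p = 0.255). Without the third tumor the value was -0.25.

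Among the transducers, Stat5b fell and Stat3 did not pass the test. Stat5b had 422, 410.3 and 386 CPM in Ctrl and 249, 175 and 165 CPM in ALK, a difference of -1.05 on the log2 scale at an SE of 0.241 (adjusted p = 0.00994). The change is close to the 2-fold limit, and it was under it without the second (-0.99) or the third tumor (-0.95). Stat5a, its near copy, had 127, 122 and 130 CPM in Ctrl and 117, 54.8 and 78.2 CPM in ALK, all under Ctrl, a difference of -0.59 on the log2 scale (SE 0.253, adjusted p = 0.10). Stat3 had 259, 235 and 235 CPM in Ctrl and 262.1, 230.6 and 371.1 CPM in ALK. The tumors lay on both sides of Ctrl, and the interval of the log2 fold change ran from -0.21 to 0.70 (adjusted p = 0.398). Jak3 had 69.3, 62.1 and 62.8 CPM in Ctrl and 65.6, 79.6 and 215 CPM in ALK. The tumor highest for Jak3 was the third, as for Stat3 and Bcl3, and the difference was not called (log2 fold change 0.89, SE 0.480, adjusted p = 0.182).

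The spread among the tumors was larger than among Ctrl mice for all 10 genes. The coefficient of variation ran from 3.26% (Stat5a) to 25.9% (Socs2) in Ctrl and from 20.2% (Pim1) to 121% (Bcl3) in ALK. The third tumor, which was highest for Bcl3, Jak3, Stat3, Cish and Socs2, also had the highest summed macrophage and granulocyte markers of the tumors (800 CPM, others 204 and 311 CPM). It was likewise highest for the sums of T cell, B cell, dendritic, thymic epithelial and erythroid markers. Its sums were the lowest of the tumors for double-positive thymocyte markers, fibroblast and endothelial markers and proliferation genes. It came from the oldest mouse, at 31 wk (others 24 and 22 wk). The part of cell make-up or age in its values was not tested.

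**Figure D4:**
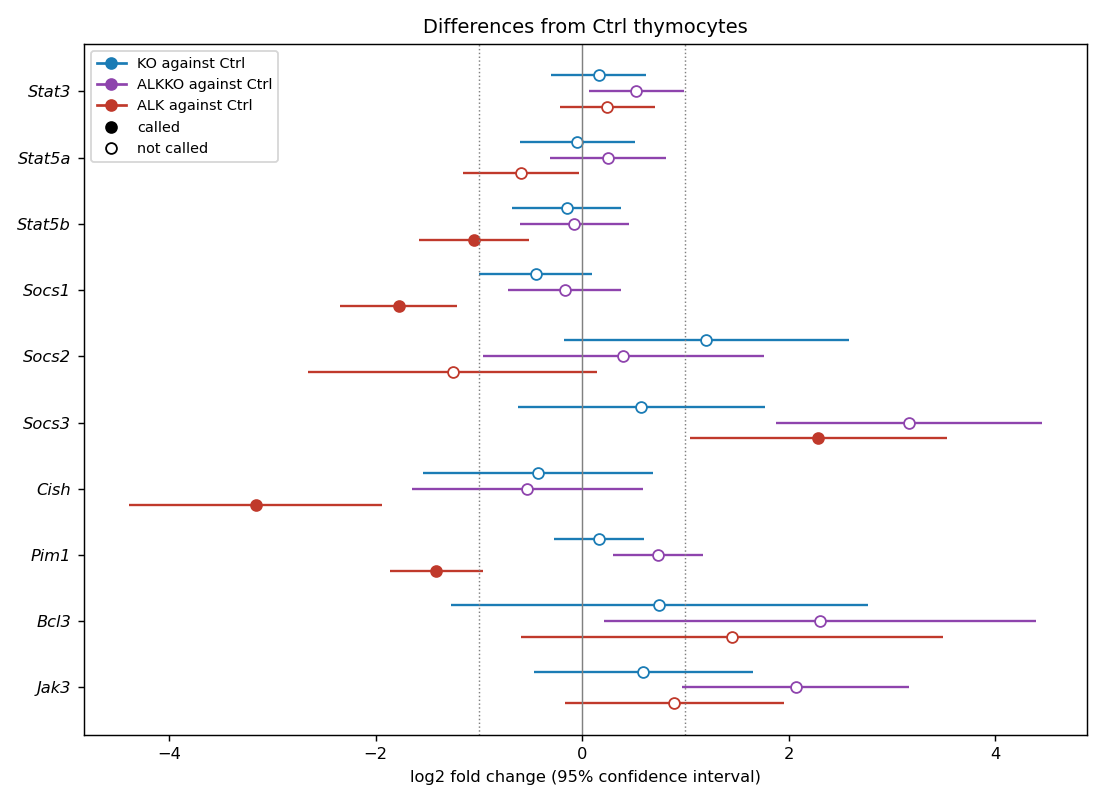
Log2 fold change of each gene against Ctrl with its 95% confidence interval, for KO, ALKKO and ALK. Filled points were called, and dotted lines mark a 2-fold change. Socs1, Cish, Pim1 and Stat5b are called lower in ALK and not called in KO or ALKKO. Socs3, Bcl3, Jak3, Stat3, Stat5a and Pim1 have their highest estimates in ALKKO. So do Socs1 and Stat5b, whose estimates there are still negative.

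Deletion of Dnmt1 alone gave no called change in the 10 genes. In KO against Ctrl edgeR called 0 of 10, 0 were under an unadjusted p of 0.05, and DESeq2's Wald test called 0. Of all 16052 genes, edgeR called 0.0187%, 886 were under an unadjusted p of 0.05, and DESeq2 called 42. The log2 fold changes ran from -0.45 (Socs1) to 1.204 (Socs2), with a median of 0.16 against 0.04 for all genes. Cish alone did not overlap, with 21.0, 27.0 and 21.3 CPM in KO, under the lowest Ctrl value of 27.6 CPM, and 12.4% of all genes did not overlap in this comparison.

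For most of the 10 genes the KO values were set apart by KO2. Bcl3 had 63.5 CPM in KO2 and 14.6 and 8.76 CPM in the other KO mice. Socs3 had 80.9 CPM in KO2 against 29.8 and 19.1 CPM, and Jak3 157 CPM against 75.5 and 59.9 CPM. Stat5b went the other way, with 229 CPM in KO2 against 440.0 and 429 CPM, within the range of the tumors. Without KO2 the log2 fold change against Ctrl went from 0.75 to -0.55 for Bcl3, from 0.57 to -0.24 for Socs3, from 0.59 to 0.07 for Jak3 and from -0.15 to 0.10 for Stat5b. The B cell and macrophage markers of KO2 given above stand beside these values, and their part in them was not tested.

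In ALKKO thymocytes, which carry NPM-ALK and lack Dnmt1, no change against Ctrl was called by edgeR. By the mean, Socs3, Bcl3, Jak3, Stat3, Stat5a and Pim1 were at their highest level of the 4 genotypes there. The macrophage and granulocyte markers (571 to 591 against 422 to 512 CPM) and the dendritic cell markers (73.6 to 107 against 49.6 to 71.3 CPM) were also above all Ctrl libraries in their sums, and their part in these values was not tested. The call count was 0 of 10, while 0.181% of all genes were called. An unadjusted p under 0.05 was reached by 5 of the 10 genes and by 510 of all 16052. DESeq2's Wald test called Socs3 and Jak3, among 98 genes in all. The groups did not overlap for 6 of the 10, with Stat3, Socs3, Pim1, Bcl3 and Jak3 higher and Cish lower in ALKKO, against 17.5% of all genes. The median log2 fold change of the 10 was 0.46, and that of all genes 0.01.

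Socs3 had 305, 236 and 238 CPM in the 3 ALKKO mice, all far above the highest Ctrl value of 32.6 CPM. The log2 fold change was 3.16 (SE 0.582, 8.94-fold higher), with an unadjusted p of 0.000245 and an adjusted p of 0.0958. It passed the test without KO2 (adjusted p = 0.0339) or without the second ALK tumor (adjusted p = 0.0358), and in a fit of Ctrl and ALKKO alone (adjusted p = 0.000246). Jak3 had 371.7, 182.8 and 258.2 CPM in ALKKO, each above the highest Ctrl value of 69.3 CPM. Its log2 fold change was 2.07 (SE 0.494, adjusted p = 0.319), and its adjusted p was 0.0248 in the fit of both groups alone and 0.00752 by DESeq2's Wald test. Bcl3 had 80.2, 89.7 and 84.3 CPM, within 1.12-fold of each other and above the highest Ctrl value of 18.6 CPM. The wide error of Bcl3 in the fit over all 12 libraries (log2 fold change 2.30, SE 0.945, adjusted p = 1) stands beside its 20.4-fold range in ALK and 7.25-fold range in KO, and in the fit of both groups alone the adjusted p was 0.000297.

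Pim1, which fell in ALK, had 143, 133 and 109 CPM in ALKKO, above the Ctrl maximum of 82.3 CPM, a log2 difference of 0.73 that was not called (SE 0.198, adjusted p = 0.549). Stat3 had 333, 384 and 333 CPM, above the Ctrl maximum of 259 CPM, a difference of 0.53 on the log2 scale (SE 0.207, adjusted p = 1). Cish had 27.2, 20.9 and 16.4 CPM, all under the lowest Ctrl value of 27.6 CPM, with a log2 fold change of -0.53 (95% confidence interval -1.64 to 0.58). Stat5b, at 357 to 400.2 CPM, Stat5a, at 127 to 163 CPM, Socs1, at 60.2 to 68.2 CPM, and Socs2, at 6.387 to 10.05 CPM, overlapped with Ctrl. The intervals of their log2 fold changes were -0.61 to 0.45, -0.31 to 0.81, -0.72 to 0.38 and -0.96 to 1.76.

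Against KO, the comparison that holds the deletion fixed, ALKKO thymocytes had Socs3, Bcl3 and Jak3 above all KO mice, KO2 included. The groups did not overlap for these 3 of 10 genes, against 6.34% of all genes. edgeR called 0 of 10 and 0.00623% of all genes, and 3 of the 10 and 432 of all 16052 were under an unadjusted p of 0.05. DESeq2's Wald test called Socs3, among 24 genes in all. The log2 fold changes were 2.59 (SE 0.568) for Socs3, 1.55 (SE 0.922) for Bcl3 and 1.47 (SE 0.485) for Jak3, each at an adjusted p of 1. Without KO2 they were 3.407, 2.856 and 2.001, with an adjusted p of 0.371 for Socs3.

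ALK tumors and ALKKO thymocytes carry the same transgene, and 7 of the 10 genes did not overlap between them, all lower in the tumors, against 43.2% of all genes. Socs1, Cish and Pim1 were called, all lower in ALK, while 19.6% of all genes were called, 7.03% as higher and 12.6% as lower. Pim1 had the most certain difference, -2.14 on the log2 scale (SE 0.206, adjusted p = 0.000208), beside -1.61 for Socs1 (SE 0.255, adjusted p = 0.00201) and -2.63 for Cish (SE 0.542, adjusted p = 0.00634). Stat5a and Stat5b had an adjusted p under 0.05 with less than a 2-fold difference (-0.84 and -0.97, adjusted p = 0.0323 and 0.0142). Socs3 was lower in all tumors than in all ALKKO thymi, with a log2 fold change of -0.87 that was not called (95% confidence interval -2.07 to 0.32, adjusted p = 0.247). Of Jak3, only the third tumor, at 215 CPM, lay within the ALKKO range.

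Whether the NPM-ALK difference is of another size with and without Dnmt1 was tested as an interaction, the log2 fold change of ALK against Ctrl minus that of ALKKO against KO. Socs1 (-2.06, SE 0.355, adjusted p = 0.00883), Pim1 (-1.98, SE 0.282, adjusted p = 0.00427) and Cish (-3.06, SE 0.733, adjusted p = 0.0288) differed, against 10.3% of all genes. For Stat5b the value was -1.12 (SE 0.338, adjusted p = 0.0597), and without KO2 -0.90 (adjusted p = 0.0363). For Socs3 it was -0.30 (95% confidence interval -1.98 to 1.38), for Bcl3 -0.10 (-2.93 to 2.74) and for Jak3 -0.58 (-2.07 to 0.91), intervals too wide to tell a like difference from an unlike one. Without KO2 the first 3 were -1.90, -2.22 and -3.21, and each had an adjusted p under 0.05. The call of Cish was lost in 9 of the 12 fits that leave out 1 library, at adjusted p values of 0.0519 to 0.0719.

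The order of the levels, compared per kilobase of exon, also differed by genotype. In Ctrl the leading transcript was Stat5b at 73.3 CPM per kilobase, followed by Stat3 (25.5), Socs1 (24.9) and Pim1 (23.0), and these last 3 overlapped between neighbours. Socs3 was 7th in Ctrl at 10.03 CPM per kilobase, apart from Jak3 above it and Bcl3 below it. In ALKKO it was 1st at 89.7 CPM per kilobase, apart from Stat5b at 69.4, with Jak3 at 50.6 overlapping with Stat5b. In ALK the means put Socs3 (49.0) above Stat5b (35.4) and Stat3 (30.2), and these neighbours overlapped. Cish and Socs2 were the lowest in every genotype, at 4.83 and 0.631 CPM per kilobase in Ctrl and 0.541 and 0.265 in ALK, where they overlapped. In KO all neighbours from Stat3 to Cish overlapped. The ratio of Stat5b to Stat5a per kilobase was 3.83 to 4.34 in Ctrl, 3.14 to 3.61 in ALKKO and 2.72 to 4.11 in ALK.

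The rest of the pathway was described with 5 further lists. Of 7 other STATs and Janus kinases, 0 were called in ALK against Ctrl, with 2 at an unadjusted p under 0.05 and a median log2 fold change of -0.26. Jak1, which pairs with Jak3, had 276 to 523 CPM in ALK around its 487 to 499 CPM in Ctrl. Jak2 ranged from 78.1 to 279 CPM in ALK and from 144 to 166 CPM in Ctrl. Of 14 other negative regulators, 0 were called (6 at an unadjusted p under 0.05), with a median of -0.13. Among them were Socs4 to Socs7, the PIAS proteins and the phosphatases Ptpn2 and Ptpn6. Of all 16052 genes, 20.4% were called in ALK against Ctrl, and 6828 had an unadjusted p under 0.05.

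Of 20 receptor chains tested, 7 were called lower and 1 higher in the tumors, beside 12% and 8.41% of all genes. The median was -0.75, with 14 chains at negative and 6 at positive log2 fold changes. The one called higher was Il12rb2, a chain of the interleukin-12 receptor, named here after its values were seen (log2 fold change 2.05, SE 0.278, adjusted p = 0.000978). Il2rb, the beta chain for interleukin-2 and interleukin-15, had 50.1, 41.8 and 41.7 CPM in Ctrl and 3.70, 0.960 and 1.88 CPM in ALK, a difference of -4.33 on the log2 scale (SE 0.680, adjusted p = 0.00181). Il21r fell by 3.32 (SE 0.686, adjusted p = 0.00605) and Lifr, the receptor of leukemia inhibitory factor, by 2.91 (SE 0.689, adjusted p = 0.0114) on the log2 scale. Il2ra, the alpha chain also known as CD25, had 54.2, 85.6 and 16.7 CPM in ALK around 55.6 to 63.9 CPM in Ctrl. Il7r ranged from 1.28 to 174 CPM among the tumors (Ctrl 59.3 to 91.3 CPM), and Il6st, which encodes gp130, from 99.7 to 435 CPM (Ctrl 271 to 341 CPM). Il2rg, the common gamma chain with which Jak3 works, is listed at 0 in all 12 libraries. So are Rag1 and Itgam, while Rag2 had 335 to 422 CPM in Ctrl. The 0 of Il2rg is therefore not read as absent expression, and its cause was not tested.

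Of 16 cytokine genes, 8 passed the filter, and 4 were called lower and 1 higher in ALK, beside 12% and 8.41% of all genes, with a median of -1.66, or -1.56 with genes at the floor set to their bound. Il10 was at 24.8, 26.2 and 0.704 CPM in ALK against 0.162 to 0.581 CPM in Ctrl (log2 fold change 5.37, SE 1.21, adjusted p = 0.00924). Il13 and Il21 had 0 reads in all 3 tumors and a mean of 2.03 and 1.36 CPM in Ctrl, so they were at least 7.78-fold and 5.20-fold lower against a floor of 3 counts per library.

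Among 18 other known STAT3 or STAT5 targets, 1 rose and 3 fell in ALK, a share near the 20.4% of all genes called, with a median of -0.24. Myc was the one that rose, from 69.8, 75.8 and 77.4 CPM in Ctrl to 244, 276 and 217 CPM in ALK (log2 fold change 1.72, SE 0.207, adjusted p = 0.000553). The falls were those of the cyclin gene Ccnd2 (-4.12, SE 0.545, adjusted p = 0.000859), the repressor gene Bcl6 (-3.19, SE 0.351, adjusted p = 0.000417) and Bcl2l1, which encodes the survival factor BCL-XL (-2.79, SE 0.305, adjusted p = 0.000411). Junb, a partner in AP-1 dimers, had 20.2, 20.9 and 52.4 CPM in ALK and 44.6 to 58.6 CPM in Ctrl (adjusted p = 0.179).

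In KO and in ALKKO against Ctrl, edgeR called 0 genes of these 5 lists, with 2 genes at an unadjusted p under 0.05 in KO and 0 in ALKKO. Of all 16052 genes, 886 were under this p in KO and 510 in ALKKO. The medians in ALKKO ran from -0.03 to 0.12. Socs3, Bcl3 and Jak3 had log2 fold changes of 2.07 to 3.16 in ALKKO, and the 67 tested genes of the 5 lists had -1.33 to 1.24. Myc was at 55.6, 59.1 and 94.2 CPM in ALKKO, on both sides of Ctrl, and its interaction value was 1.69 (SE 0.287, adjusted p = 0.00805).

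**Figure D5:**
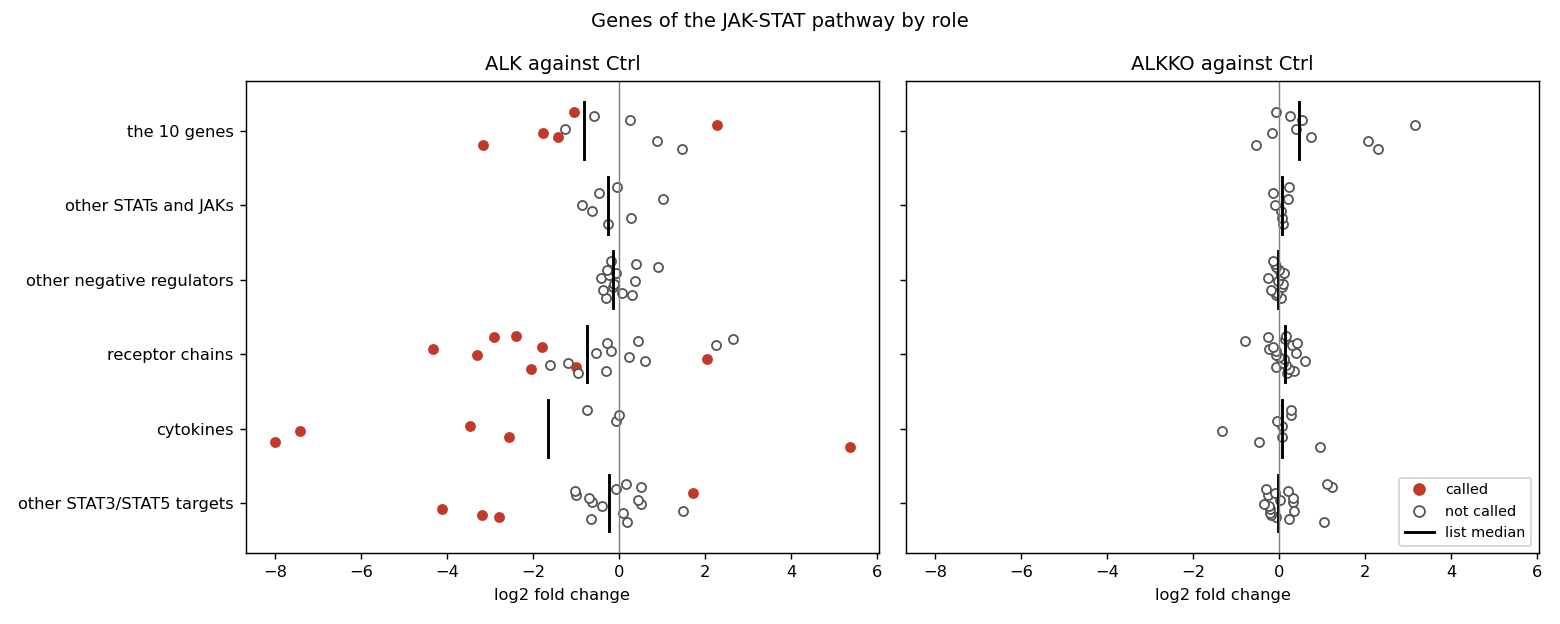
Log2 fold change against Ctrl of each tested gene, by role in the pathway, in ALK (left) and ALKKO (right), with called genes in red and list medians as bars. In ALKKO the 5 lists stay between -1.33 and 1.24, while Socs3, Bcl3 and Jak3 reach 2.07 to 3.16 without being called.

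The genes nearest to each of the 10 in profile were found by the root mean square difference of centred log2(CPM + 1) over the 12 libraries. Stat5a and Stat5b had close neighbours, Pxmp4 at 0.0867 and Phf2 at 0.114, and those of Socs1 (Ripor1, 0.157) and Pim1 (Cd47, 0.236) were also small beside the gene's own root mean square variation of 0.746 and 0.801. Socs3 (Trim66, 0.611, and the granzyme gene Gzma, 0.707, of a variation of 1.42) and Bcl3 (Sgk1, 0.703, of 1.35) had no near match. Trim66 and Gzma were high in both ALK and ALKKO, with mean levels of 0.838 and 50.5 CPM in Ctrl, 8.13 and 204 CPM among the tumors, and 8.66 and 325 CPM for ALKKO. Sgk1, a serum- and glucocorticoid-induced kinase gene, was among the 2 nearest genes of both Bcl3 and Jak3 (0.388), with means of 41.0 CPM in Ctrl and 155 CPM in ALKKO. The other nearest genes were Slc25a30 and Fut11 for Stat3, Sec22c for Stat5a, Stx6 for Stat5b, Mxd4 for Socs1, Dennd5a and Tifab for Socs2, Adgre5 and Stx11 for Cish, Trav2 for Pim1, Zc3h12d for Bcl3 and Cc2d2b for Jak3.

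For a single gene, permuting 3 mice per group exactly (two-sided) gives no p below 0.1, and every gene without overlap reached this limit. The labels name each library as a mouse of its own, and p-values measure the spread between these mice.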

How the data were processed

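Whole-tissue RNA of 12 mice was sequenced as stranded, poly-A selected, single-end reads of 50 bases. The values are the authors' deposited raw read counts per gene ID, 1 file per mouse. Per the submitters' notes and the methods, reads were trimmed with Trim Galore, aligned to mm10 with STAR and counted with HTSeq, and Picard 2.19.2, FastQC and DESeq2 are also named. Other versions, the annotation release and the strand setting of the counting are not given in the sources used here. Rows of reads not assigned to genes were left out of library sizes. They held 1.70% to 2.81% (no gene), 1.38% to 2.83% (ambiguous) and 39.2% to 51.8% (not unique) of the reads. The last 2 shares set the tumors apart. Reads that were not unique made up 48.4% to 51.8% in ALK and 39.2% to 45.6% in the thymus libraries. Ambiguous reads made up 1.38% to 1.60% in ALK and 2.00% to 2.83% in the thymus libraries. The part of these shares in the differences of ALK was not tested.

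Counts of all genes were fitted in edgeR 4.0.16 (R 4.3.3) with TMM normalization, filterByExpr, 1 mean per genotype over all 12 libraries and the robust quasi-likelihood test, with Benjamini-Hochberg adjustment over 16052 genes. Calls required an adjusted p under 0.05 with over 2-fold difference, the thresholds of the study, and an interaction at an adjusted p under 0.05 alone. DESeq2 1.42.0, other scalings and filters, sex and age as covariates, fits of 2 groups alone, a replicate block and leaving out each library were tried as alternatives. Exon lengths came from GENCODE M21 on GRCm38 and matched 50376 of 50600 IDs. Scripts were tested on simulated data. Of each pathway list the 3 called genes with the largest absolute change in ALK against Ctrl and a group mean of at least 1 CPM were named, plus Myc, Jak1, Jak2, Il2ra, Il2rg, Il7r, Il6st and Junb whatever their values, and the 2 genes nearest in profile to each member. The members and lists were chosen with earlier results of these data known. No library was a duplicate of another. One further gene fixed by name is not reported here.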

Additional observations from a re-analysis of the deposited data

Results flagged for a closer look

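For 3 of the genes the NPM-ALK difference was not the same with and without Dnmt1, by edgeR's test of the difference itself (ALK against Ctrl minus ALKKO against KO). The value was -2.06 on the log2 scale for Socs1 (adjusted p = 0.00883), -3.06 for Cish (adjusted p = 0.0288) and -1.98 for Pim1 (adjusted p = 0.00427). All 3 tumors lay under all 9 other libraries for each of these genes. The ALK samples are tumors and the ALKKO samples thymi, so the tumor state and Dnmt1 status cannot be told apart in these values.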

How the results depend on the processing

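With 12 libraries of 12473857 to 18864327 reads and 3 mice a genotype, the spread between mice and not the depth sets the errors, except for genes near the floor of 3 counts. Of 130 alternative counts of called members, 117 stayed within 1.5 times the reported count. In ALKKO against Ctrl the count of 0 became 2 by DESeq2's Wald test, 1 with sex as a covariate and 3 in the fit of the 2 groups alone. It was 0 to 1 with a library left out (1 without KO2 or the second ALK tumor). Over all genes the calls in this comparison were 29 as reported and 98 by DESeq2. They were 34 with sex as a covariate, 98 in the fit of the 2 groups, 31 without KO2 and 34 without the second tumor. In ALKKO against KO the count of members became 1 by DESeq2, with 24 called over all genes. In ALK against ALKKO 3 became 5 by DESeq2, with age as a covariate and by adjusted p alone. It was 3 to 6 with a library left out (5 without KO2 or the first tumor, 6 without the third). Over all genes the calls in ALK against ALKKO were 3145 as reported. They were 3843 by DESeq2, 2981 with age as a covariate and 4506 by adjusted p alone. Without KO2 they were 3654, without the first tumor 3556 and without the third 3719. The interaction count of 3 was 2 to 5 with a library left out (5 without the first tumor), and the count of 5 in ALK against Ctrl was 4 to 5. Over all genes the interaction calls were 1646 as reported and 574 to 2573 with a library left out, highest without the first tumor. Deviations of same-numbered mice from their group means correlated over 0.1 in 5 of 18 pairs (-0.143 to 0.445 between thymus groups, highest for the first KO and ALKKO mice), so the numbers were not taken as pairs, and with the replicate block the counts were 5 in ALK against Ctrl, 3 in ALK against ALKKO, 3 for the interaction and 0 in the others, the reported counts.

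Of 1250 alternative log2 fold changes, 24 reversed in sign, all of values that were not called. With sex as a covariate, KO against Ctrl turned to -0.065 for Stat3, 0.12 for Stat5a, 0.10 for Stat5b, -0.24 for Socs3, -0.052 for Pim1 and -0.55 for Bcl3, and ALKKO against KO to -0.18 for Stat5b and 0.022 for Cish. KO2 is the only female, so this fit leaves it out by construction. With a library left out, KO against Ctrl ran from -0.061 to 0.27 (Stat3), -0.17 to 0.13 (Stat5a), -0.32 to 0.10 (Stat5b), -0.24 to 0.91 (Socs3), -0.048 to 0.27 (Pim1) and -0.55 to 1.16 (Bcl3), each turned by KO2. Likewise ALKKO against KO ran from -0.18 to 0.23 (Stat5b) and -0.31 to 0.064 (Cish), ALK against Ctrl from -0.25 to 1.98 (Bcl3), and the interaction from -1.15 to 0.074 (Socs3) and -1.81 to 0.45 (Bcl3). In the fit of 2 groups alone, Cish in ALK against ALKKO had an adjusted p of 0.0503. The cause was not tested. The calls over all genes were also ranged over the alternatives that leave no library out and keep the 2-fold limit. They ran from 1756 to 3969 around 3281 in ALK against Ctrl and from 0 to 42 around 3 in KO against Ctrl. The range was 1 to 98 around 29 in ALKKO against Ctrl and 0 to 24 around 1 in ALKKO against KO. It was 1531 to 3843 around 3145 in ALK against ALKKO and 809 to 3179 around 1646 for the interaction. By adjusted p alone, 4734 were called in ALK against Ctrl and 4506 in ALK against ALKKO. With a library left out, the calls ran from 2130 to 3787 in ALK against Ctrl and from 574 to 2573 for the interaction. By library totals alone, 30.0% of interaction calls were higher against 41.8% with TMM. With a pseudocount of 0.1 CPM, 0 of the 2 nearest genes of Cish were shared, 1 of those of Socs1, Socs2, Socs3, Pim1 and Jak3, and both of the others.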
